A study of Homo sapiens with 22 samples.

Results

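The MHC class I and antigen presentation genes were followed in chromatin profiles of K562 cells, an established human leukemia line, exposed to PMA. The set held 9 genes: HLA-B, HLA-C, HLA-E, B2M, TAP1, TAP2, PSMB8, PSMB9 and NLRC5. Its members were every region of the 4 deposited count tables that overlapped the GRCh38.p14 RefSeq span of 1 of these genes extended by 20000 bases on each side. This gave 115 of 409446 regions: 25 H3K27ac, 38 Jun, 22 CTCF and 30 Rad21 regions. PMA is a phorbol ester, used here at 25 nM to drive the cells toward a megakaryocyte-like state. The assay, abbreviated CNR in the sample titles and taken here as CUT&RUN, releases DNA beside an antibody-bound protein or histone mark. H3K27ac marks active promoters and enhancers, Jun belongs to the AP-1 family of transcription factors, CTCF is an insulator protein and Rad21 a subunit of cohesin. The groups were wild-type K562 cells at 0, 6 and 72 h of PMA for H3K27ac, Jun and CTCF, and at 0 and 72 h for Rad21, with 2 libraries in each of 11 groups. All groups carry the same treatment label, so the 0 h libraries are the zero time point of the PMA course. The labels do not say that the libraries of a group came from separate cultures, so p-values measure only the spread between these libraries.

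MHC class I molecules show fragments of the cell's own proteins to cytotoxic T cells. A heavy chain such as HLA-B or HLA-C pairs with the light chain B2M, and is loaded with peptides that the proteasome cuts, where PSMB8 and PSMB9 are the interferon-induced subunits, and that the TAP1-TAP2 transporter carries into the endoplasmic reticulum. HLA-E presents signal peptides to natural killer cell receptors, and NLRC5 is the transactivator that occupies class I promoters together with factors bound at their conserved boxes.

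Promoter sequence came from RefSeq (GRCh38.p14) for 7 of the 9 genes, all but HLA-E and NLRC5. The 250 bases before the annotated start are shown for the 4 starts whose Jun or H3K27ac regions are described most closely below. Capitals mark matches, on either strand, to the motifs named after the lines.
B2M: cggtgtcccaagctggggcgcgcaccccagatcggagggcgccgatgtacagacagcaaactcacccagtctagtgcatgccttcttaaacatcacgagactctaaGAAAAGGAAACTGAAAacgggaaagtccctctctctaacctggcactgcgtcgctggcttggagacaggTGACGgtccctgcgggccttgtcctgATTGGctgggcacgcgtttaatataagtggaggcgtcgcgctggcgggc
HLA-C: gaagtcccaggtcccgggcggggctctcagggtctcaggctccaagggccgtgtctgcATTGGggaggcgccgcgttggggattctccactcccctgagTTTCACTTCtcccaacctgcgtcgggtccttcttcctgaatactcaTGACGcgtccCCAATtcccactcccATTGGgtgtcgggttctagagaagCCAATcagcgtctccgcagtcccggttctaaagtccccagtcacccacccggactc
TAP1: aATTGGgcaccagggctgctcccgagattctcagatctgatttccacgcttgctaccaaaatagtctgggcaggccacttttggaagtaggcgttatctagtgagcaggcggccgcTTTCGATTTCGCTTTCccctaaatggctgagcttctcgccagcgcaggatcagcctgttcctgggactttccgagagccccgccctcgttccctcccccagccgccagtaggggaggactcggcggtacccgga
PSMB8: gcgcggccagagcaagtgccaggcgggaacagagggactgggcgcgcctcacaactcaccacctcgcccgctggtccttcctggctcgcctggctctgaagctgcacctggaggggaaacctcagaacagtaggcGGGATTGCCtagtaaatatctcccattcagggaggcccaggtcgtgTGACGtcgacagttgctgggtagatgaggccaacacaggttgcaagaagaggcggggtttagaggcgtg
They lie at chr15:44711267-44711516 on the plus strand for B2M, and on the minus strand at chr6:31272093-31272342 for HLA-C, chr6:32853705-32853954 for TAP1 and chr6:32844680-32844929 for PSMB8. For TAP1 and PSMB8 the first of 2 annotated starts is shown. The interferon response element was searched by name in its general form, which 3.02% of 35116 promoters of this length held, and gave 2 overlapping matches each in B2M and TAP1 and 1 in TAP2. A shorter class I form, GAANTGAAA, held by 1.53% of promoters, matched once in HLA-B and once in HLA-C. The kappa B motif was searched only as GGGANTNCC, held by 3.75%, which matched in HLA-B and PSMB8. Forms of this motif with other letters or spacing were not searched and are not marked in the lines above. The cAMP response element core TGACG, held by 21.2%, matched in 6 of the 7 genes, with TAP1 the exception, and CCAAT, held by 32%, matched in HLA-B, HLA-C, B2M, TAP1 and PSMB9. The AP-1 motif TGANTCA, held by 6.57%, was not found in these windows. These matches describe letters only and show neither binding nor its absence.

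Total counts in regions ran from 12634261 to 27266241 per H3K27ac library, 4766421 to 18883962 for Jun, 2553677 to 6068421 for CTCF and 4398797 to 7285286 for Rad21. Depth moved with time: the Jun libraries held between 4766421 and 5531183 counts at 6 h, but 17245043 to 18883962 at 72 h, and the mitochondrial share of Jun counts was 24.1% to 27.7% at 0 h, 18.1% to 21.3% at 6 h and 8.58% to 9.07% at 72 h. The part of these differences in the results was not tested. Levels below are CPM (raw counts scaled to the library size, after TMM adjustment), and calls are edgeR quasi-likelihood tests with a Benjamini-Hochberg adjusted p under 0.05 over all regions of the antibody. Scaling to total counts instead moved the all-region median of the 72 against 0 h log2 fold changes from 0.18 to 0.42 in H3K27ac and from 0.17 to 0.73 in Jun. The line was checked on its own markers: the strongest H3K27ac regions at the erythroid genes GATA1, TAL1, KLF1 and NFE2 stood at mean levels of 42.5 to 165 CPM at 0 h. All 4 fell at 6 h and 3 of 4 at 72 h, where GATA1 did not pass the test, and their part in the results was not tested. Of 4 lymphoid genes, PAX5 was at 0 CPM at 0 h, while CD3E, CD79A and CD2 stood at 5.03, 21.8 and 75.4 CPM. Fewer cells carrying a mark and less of the mark per cell cannot be told apart in these bulk profiles.

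H3K27ac changed in opposite directions across the set. At 72 h, regions in NLRC5, beside HLA-E and at HLA-C rose, while the promoter of B2M fell and 1 of 4 regions in the TAP and PSMB cluster fell. All 25 regions passed the filter on low counts. At 6 against 0 h, 9 rose and 4 fell, where 32.3% of all regions rose and 26.3% fell. At 72 against 0 h, 11 rose and 8 fell, against 43.4% and 38.1% of all regions, and the median log2 fold change was 0.17 against 0.18 over all regions. At 72 against 6 h, 6 rose and 3 fell, against 33.1% and 30.8%. At 72 against 0 h these shares are near the background, and at 72 against 6 h calls were fewer than over all regions, with no test of that difference. With total counts as the scaling, the members split 12 higher to 2 lower at 6 h and 11 to 5 at 72 h. Over all regions, 71.8% of calls were then higher at 6 h and 58.5% at 72 h. DESeq2 called 6 higher and 3 lower at 6 h and 10 higher and 4 lower at 72 h.

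The largest H3K27ac increase lay inside NLRC5. The region at chr16:56999751-57001630, 1880 bases long with its middle 11.1 kb from the low end of the gene span, held 8 and 6 raw counts (0 h), 204 and 185 (6 h) and 579 and 564 (72 h). In CPM these were 0.454 and 0.316, 14.3 and 9.1, and 21 and 20.5. The time points did not overlap, and the level near 0 was higher at 6 h and higher again at 72 h. The authors' peak lists held a peak over this region in 0 libraries at 0 h, 1 at 6 h and 2 at 72 h. The log2 fold change was 4.89 (SE 0.30, edgeR adjusted p = 5.8e-13) at 6 h and 5.74 (SE 0.28, edgeR adjusted p = 7.44e-16) at 72 h, a 53.4-fold difference, and 72 h exceeded 6 h by 0.85 (SE 0.16, edgeR adjusted p = 6.97e-05). The authors' deposited table labels 3 of the 25 H3K27ac member regions upLate and the rest static. In all, 4 of the 7 NLRC5 regions rose at 6 h and 4 at 72 h, not all of them the same. The largest fall was at chr16:57062111-57062389, also inside the gene and 73 kb from its low end, which went from 1.19 and 1.37 CPM to 0.77 and 0.492 at 6 h and 0.362 and 0.401 at 72 h. Both libraries at 72 h lay below those at 0 h, and the log2 fold change was -1.73 (SE 0.53, edgeR adjusted p = 0.00459). The 4 regions that rose at 72 h all lay closer to the low end of the gene than the 2 that fell. The region chr16:57092278-57093333, over the start of CPNE2 and 8.76 kb beyond the gene, was called higher at 6 h but not at 72 h. Added here after its values were seen, it held 49 and 52 raw counts (0 h), 116 and 119 (6 h) and 70 and 85 (72 h).

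The light chain B2M lost H3K27ac over its start and gained it farther out. The region over the start, chr15:44709883-44713232, which also holds the start of PATL2, stood at 131 and 130 CPM (0 h), 74.8 and 86.5 (6 h) and 79.9 and 85 (72 h). It was the strongest of the B2M window, and the 0 h libraries lay above all later ones. It fell by 0.69 (SE 0.11, edgeR adjusted p = 4.69e-06) on the log2 scale at 6 h and by 0.66 (SE 0.11, edgeR adjusted p = 3.33e-06) at 72 h, with no call between 6 and 72 h. Over all protein-coding genes, the strongest H3K27ac region within 2000 bases of the span was lower at 72 h in 64.3% and higher in 23.3%. The largest fall was at chr15:44724056-44724457, 5.91 kb beyond the high end of the gene, with 10.6 and 10.6 CPM (0 h), 3.5 and 6.45 (6 h) and 4.34 and 4.88 (72 h), giving a log2 fold change of -1.20 (SE 0.20, edgeR adjusted p = 7.37e-06) at 72 h. In contrast, chr15:44734756-44737329, 16.6 kb beyond the gene and over the start of TRIM69, rose from 15.8 and 13.9 CPM (0 h) to 21.1 and 20.7 (6 h) and 48.4 and 49.4 (72 h). The 3 time points did not overlap, and the log2 fold change was 1.72 (SE 0.11, edgeR adjusted p = 4.18e-13) at 72 h. Across the 8 regions of the window, 1 rose and 4 fell at 6 h, and 3 rose and 5 fell at 72 h. Since the window holds the starts of other genes, these regions are assigned to B2M by distance alone.

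Among the heavy chains, HLA-E gained H3K27ac at the low end of its span and in its flank. The region at chr6:30488987-30490409 held 16.7 and 17.3 CPM (0 h), 25.5 and 26.7 (6 h) and 22.9 and 24.5 (72 h). Its 0 h libraries lay below the others, its log2 fold change being 0.62 (SE 0.12, edgeR adjusted p = 7.85e-05) at 6 h and 0.48 (SE 0.12, edgeR adjusted p = 0.000561) at 72 h. The strongest region of the window, chr6:30495212-30497285, did not pass the test at either time, with 48.2 and 53.5 CPM at 0 h and 47.3 and 48.4 at 72 h. The largest increase was at chr6:30500645-30501684, 6.45 kb beyond the gene, with 4.77 and 5.27 CPM (0 h), 7 and 8.07 (6 h) and 17.1 and 17.9 (72 h). The time points were apart, and the log2 fold change was 1.80 (SE 0.16, edgeR adjusted p = 1.14e-10) at 72 h. At 6 h it was 0.59 (SE 0.18, edgeR adjusted p = 0.00546), a call that was lost without 6 h replicate 2 (adjusted p = 0.0839) and by DESeq2 (0.0578). At HLA-C a single short region over the start, chr6:31271807-31272131, held 2 and 5 raw counts (0 h), 8 and 17 (6 h) and 26 and 27 (72 h). It rose, its log2 fold change being 2.30 (SE 0.66, edgeR adjusted p = 0.00251) at 72 h, but stayed under 1 CPM in every library. Its call at 6 h, for a log2 fold change of 1.87 (SE 0.71, edgeR adjusted p = 0.026), was lost by DESeq2 (adjusted p = 0.105), without 0 h replicate 1 (0.145), without 6 h replicate 2 (0.167) and without either 72 h library (0.0558 and 0.0591). No H3K27ac region lay within the HLA-B window. HLA-B and HLA-C are similar in sequence, and how reads that match both were counted is not given in the sources used here.

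The genes of the TAP and immunoproteasome cluster share their windows, and the same 4 H3K27ac regions served TAP1, TAP2, PSMB8 and PSMB9. The strongest, over the start of TAP2 at chr6:32837631-32839010, held 15.2 and 15.7 CPM (0 h), 15.7 and 17.3 (6 h) and 11.3 and 12.2 (72 h). The 72 h libraries lay below the rest, and it fell by 0.39 (SE 0.13, edgeR adjusted p = 0.00867) on the log2 scale against 0 h. That call was lost without 0 h replicate 2 (adjusted p = 0.0524), without 72 h replicate 1 (0.0688) and by DESeq2 (0.082), and the value was -0.16 with total counts as the scaling. The region at the start of TAP1, chr6:32853530-32854100, lies next to the start of PSMB9. It held 5.85 and 7.9 CPM (0 h), 4.48 and 5.96 (6 h) and 4.2 and 6.26 (72 h), with libraries that overlapped and no call (edgeR adjusted p = 0.0889 at 72 h). It was called lower at 72 h without 0 h replicate 1 (adjusted p = 0.0322) or 72 h replicate 2 (0.0183). At the start of PSMB8, chr6:32844428-32844774 stayed between 1.06 and 1.89 CPM in all 6 libraries, with no call.

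**Figure D1:**
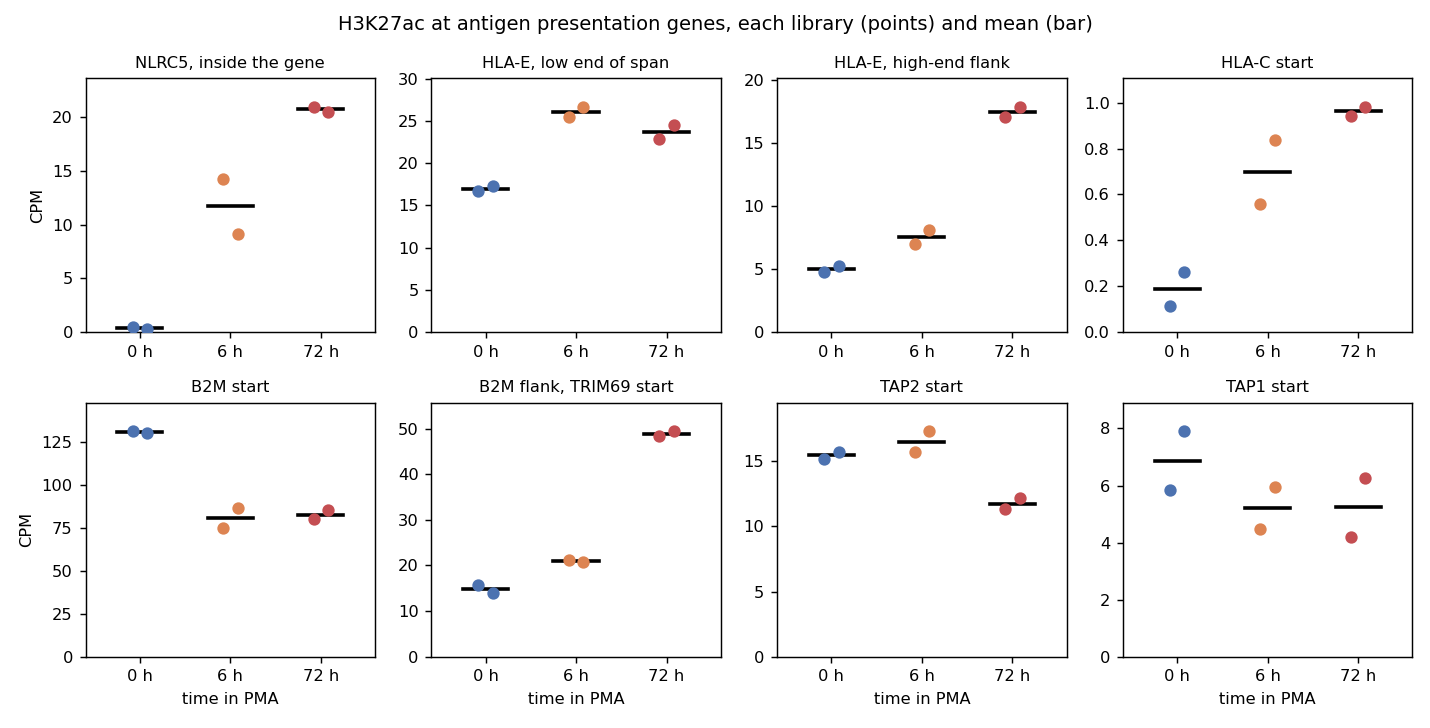
H3K27ac level in CPM, on axes that start at 0, for each library (points) and the mean of 2 (bars) at 0, 6 and 72 h in 8 regions of the set. The NLRC5 region rises from below 1 CPM to 21 and 20.5, while the region over the B2M start falls from 131 and 130 CPM to 79.9 and 85.

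Jun fell at the strongest regions of the B2M, HLA-E and NLRC5 windows and rose at weaker ones in NLRC5. Over all protein-coding genes, the strongest Jun region within 2000 bases of the span was lower at 72 h in 52.8% and higher in 18.2%. All 38 member regions passed the filter on low counts. At 6 against 0 h, 5 rose and 7 fell, where 13.1% of all regions rose and 12.2% fell. At 72 against 0 h, 7 rose and 13 fell, against 28% and 25.7% of all regions. At 72 against 6 h, 0 rose and 3 fell, against 12.7% and 13.5%. DESeq2 called 3 higher and 6 lower at 6 h, 2 higher and 11 lower at 72 h, and 1 lower at 72 against 6 h, and 6 regions had an unadjusted p under 0.05 in the last comparison. With total counts as the scaling, the split turned to 11 higher and 6 lower at 72 against 0 h and to 3 higher and 1 lower at 72 against 6 h. Over all regions, 74.3% and 78.9% of calls were then higher in these comparisons, so the turn was not particular to the members. Leaving out 0 h replicate 2 left 7 calls at 6 h and 12 at 72 h, and without 72 h replicate 1 or 2 there were 11 or 13 calls at 72 against 0 h and 0 at 72 against 6 h. Without 6 h replicate 1, 5 were called at 72 against 6 h.

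Within NLRC5 the Jun regions moved both ways. The region at chr16:57000381-57001025, inside the H3K27ac region that rose, held 2.77 and 2.29 CPM (0 h), 7.49 and 14.4 (6 h) and 9.75 and 9.42 (72 h). Later libraries lay above both at 0 h, for a log2 fold change of 2.13 (SE 0.34, edgeR adjusted p = 8.56e-05) at 6 h and 1.92 (SE 0.31, edgeR adjusted p = 2.98e-05) at 72 h. The strongest Jun region of the window, chr16:57062266-57063042, overlaps the stretch where H3K27ac fell. It went from 15.2 and 22.8 CPM (0 h) to 5.45 and 3.83 (6 h) and 6.56 and 5.81 (72 h), with log2 fold changes of -2.05 (SE 0.29, edgeR adjusted p = 2.25e-05) and -1.62 (SE 0.23, edgeR adjusted p = 5.64e-06). Of the 13 regions, 4 rose and 2 fell at each of the later times.

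**Figure D2:**
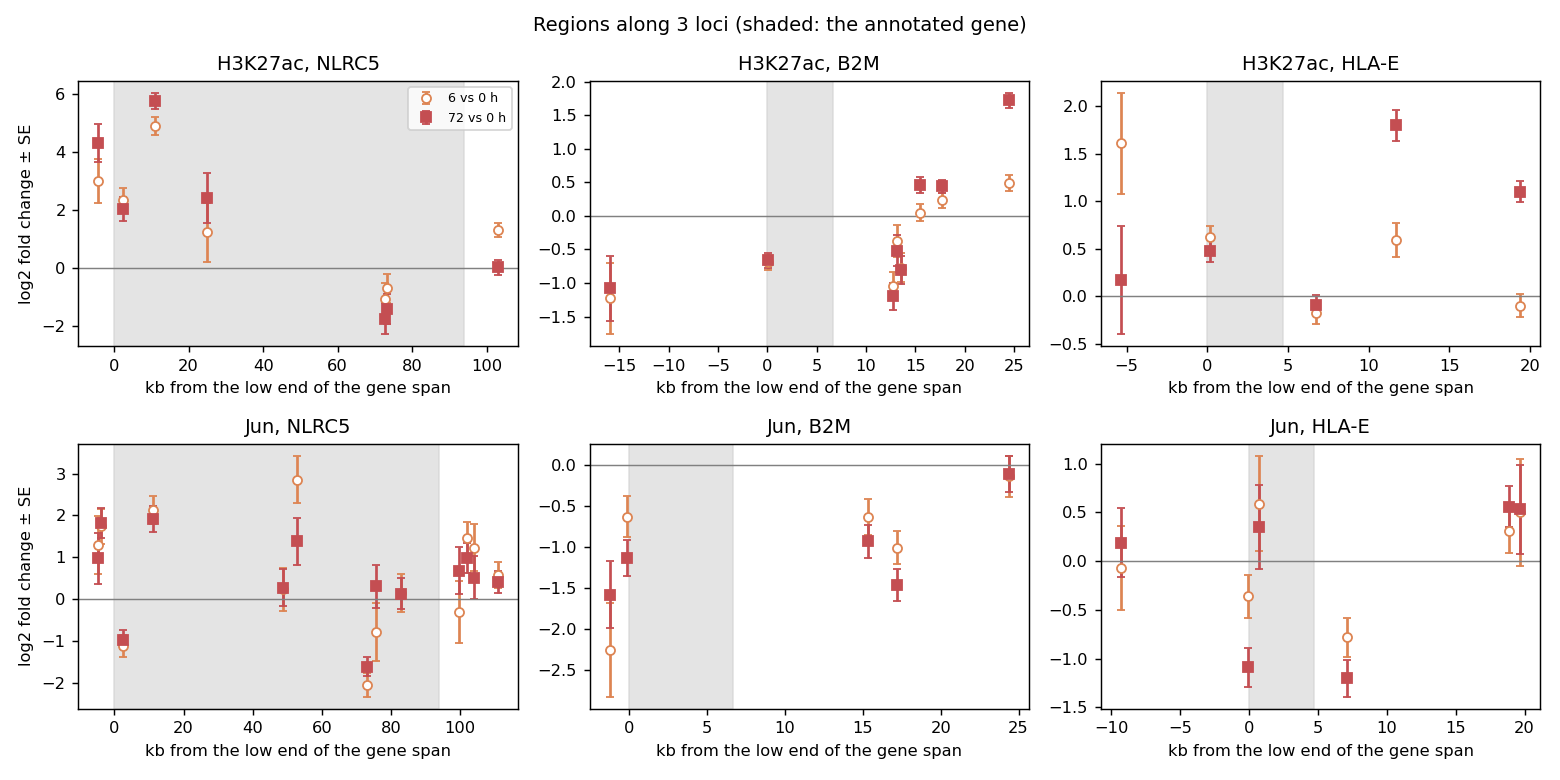
Log2 fold change with its standard error at 6 h (open circles) and 72 h (filled squares) against 0 h, for H3K27ac (top) and Jun (bottom), by distance in kb from the low end of the NLRC5, B2M and HLA-E spans (shaded). In NLRC5 the region 11.1 kb in rises for both, and the regions near 73 kb fall.

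Around B2M, 3 of 5 Jun regions fell at 6 h and 4 at 72 h, and none rose. Of the 6 h calls, that at chr15:44726582-44727103 was lost with total counts (adjusted p = 0.192), by DESeq2 (0.0973) and without any 1 library but 6 h replicate 2 (0.0585 to 0.24), and that at chr15:44710108-44710364 without 0 h replicate 2 (0.0658). The strongest, chr15:44728314-44729141, 10.2 kb beyond the gene, held 69.1 and 74.5 CPM (0 h), 30 and 41.2 (6 h) and 24.8 and 27.3 (72 h). Its time points did not overlap, and it fell by 1.46 (SE 0.19, edgeR adjusted p = 2.41e-06) on the log2 scale at 72 h. H3K27ac over the same stretch did not fall: the region chr15:44728238-44730277 was higher at 72 h by 0.44 (SE 0.10, edgeR adjusted p = 0.000415) on the log2 scale, and was added here after its values were seen. At the start, chr15:44710989-44711747 held 13.4 and 14.9 CPM (0 h), 10.2 and 8.21 (6 h) and 7.23 and 5.77 (72 h), and fell by 1.13 (SE 0.22, edgeR adjusted p = 0.000191) at 72 h. The largest fall was just upstream at chr15:44710108-44710364, from 4.23 and 6.31 CPM to 0.227 and 1.82 at 6 h and 1.38 and 2.12 at 72 h, giving a log2 fold change of -1.58 (SE 0.41, edgeR adjusted p = 0.0029). This call was lost without 0 h replicate 2 (adjusted p = 0.0753) or 72 h replicate 1 (0.0785). The smallest fall among called regions was at chr15:44726582-44727103, by 0.93 (SE 0.20, edgeR adjusted p = 0.000543), which was not called with total counts as the scaling (adjusted p = 0.139).

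Jun beside HLA-E was strongest at chr6:30496149-30497150, 1.96 kb beyond the gene. This region held 68.8 and 75 CPM (0 h), 35.2 and 48.4 (6 h) and 30.7 and 31.8 (72 h). The time points were apart, and it fell by 1.20 (SE 0.19, edgeR adjusted p = 2.32e-05) at 72 h, while the H3K27ac region that contains it showed no call. The 1 Jun region of the HLA-E window that rose at 72 h, chr6:30508069-30508837, went from 12.7 and 11.3 CPM to 16.9 and 18.4 (log2 fold change 0.56, SE 0.21, edgeR adjusted p = 0.0281). It lost its call by DESeq2 (adjusted p = 0.212) and without any 1 of the 0 h and 72 h libraries (0.0705 to 0.313). At the HLA-C start, Jun fell from 2.92 and 2.87 CPM to 1.57 and 1.15 at 72 h (log2 fold change -1.09, SE 0.43, edgeR adjusted p = 0.0389), opposite to H3K27ac there. That call, too, was lost by DESeq2 (adjusted p = 0.125), with total counts (0.296) and without any 1 of the 0 h and 72 h libraries (0.109 to 0.224). Beside HLA-B, the region chr6:31368361-31368841 rose from 2.04 and 1.29 CPM to 4.42 and 3.52 (log2 fold change 1.25, SE 0.39, edgeR adjusted p = 0.0106), and lost its call by DESeq2 (adjusted p = 0.11) and without 0 h replicate 2 (0.105), 72 h replicate 1 (0.134) or 72 h replicate 2 (0.058). The region nearest the HLA-B start, chr6:31366714-31366975, and the strongest of that window, chr6:31371710-31372204, had no call.

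In the TAP and immunoproteasome cluster, Jun fell by 72 h at the PSMB8 start, the shared TAP1 and PSMB9 starts and the TAP2 start, but none of these calls held with total counts as the scaling, where the TAP2 value turned to 0.01. Over the PSMB8 start, chr6:32844490-32844826 held 35 and 32 raw counts (0 h), 3 and 4 (6 h) and 38 and 44 (72 h) in the deeper libraries. In CPM these were 5.1 and 4.59, 0.681 and 0.73, and 1.81 and 1.87. The 3 time points did not overlap, and Jun was lowest at 6 h, with log2 fold changes of -2.76 (SE 0.54, edgeR adjusted p = 0.000637) at 6 h and -1.39 (SE 0.36, edgeR adjusted p = 0.00241) at 72 h. The difference between 6 and 72 h was not called. It passed with total counts as the scaling (log2 fold change 1.72, edgeR adjusted p = 0.0241) or with those outside the mitochondrial genome (1.54, edgeR adjusted p = 0.0456). Over the shared TAP1 and PSMB9 starts, chr6:32853701-32854206 went from 8.6 and 7.31 CPM (0 h) to 6.13 and 4.74 (6 h) and 3.42 and 4.12 (72 h), and fell by 1.07 (SE 0.26, edgeR adjusted p = 0.00172). The call was lost without 72 h replicate 1 (adjusted p = 0.0522). Inside PSMB9, chr6:32857611-32857834 fell by 1.49 (SE 0.43, edgeR adjusted p = 0.00571), and lost its call without 72 h replicate 1 (adjusted p = 0.0649). The TAP2 start region, chr6:32837797-32838973, held 11.2 and 9.03 CPM (0 h), 11.1 and 15.7 (6 h) and 6.94 and 6.88 (72 h), giving a log2 fold change of -0.55 (SE 0.23, edgeR adjusted p = 0.0473). It also missed the threshold by DESeq2 (adjusted p = 0.118) and without any 1 of the 0 h and 72 h libraries (adjusted p 0.0537 to 0.297). With total counts the PSMB8, TAP1 and PSMB9 regions kept a negative sign, at -0.83, -0.51 and -0.93, and were not called. Beyond TAP2, chr6:32819545-32820040 rose from 1.75 and 1.43 CPM (0 h) to 6.36 and 3.28 (6 h) and 3.66 and 4.03 (72 h) (log2 fold change 1.27, SE 0.40, edgeR adjusted p = 0.0104 at 72 h), and lost that call by DESeq2 (adjusted p = 0.0848) and without 0 h replicate 2 (0.0759) or 72 h replicate 2 (0.11).

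**Figure D3:**
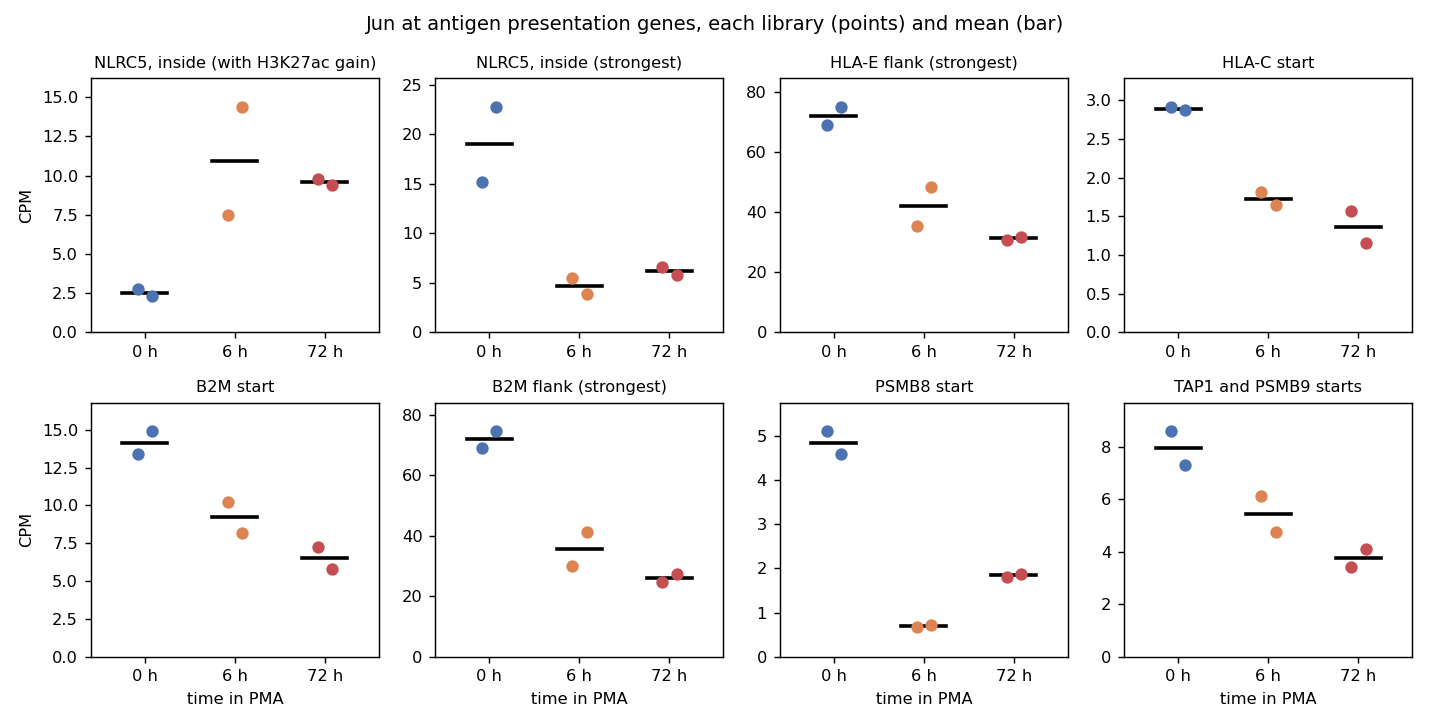
Jun level in CPM, on axes that start at 0, for each library (points) and the mean of 2 (bars) at 0, 6 and 72 h in 8 regions of the set. Jun rises at 1 NLRC5 region, from 2.77 and 2.29 to 9.75 and 9.42 CPM, and is lower at 72 h than at 0 h in the other 7.

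CTCF at these genes showed few calls. Of 22 regions, 20 passed the filter on low counts. At 6 against 0 h edgeR called 0 of 20, with 0 at an unadjusted p under 0.05 and 0 by DESeq2, where 2.65% of all regions were called. At 72 against 0 h it called 1, with 4 at an unadjusted p under 0.05 and 0 by DESeq2, against 6.79% of all regions. At 72 against 6 h it called 0, with 2 at an unadjusted p under 0.05 and 0 by DESeq2, against 2.18%. The 1 call was at chr6:31368556-31368755 in the HLA-B window, a weak region with 5 and 0 raw counts (0 h), 5 and 7 (6 h) and 34 and 34 (72 h) (log2 fold change 3.04, SE 0.79, edgeR adjusted p = 0.0328). It lost its call without any 1 of the 0 h and 72 h libraries (adjusted p 0.0655 to 0.255). Leaving out either 6 h library raised the number called at 72 against 0 h, both among the members and over all regions. Leaving out 6 h replicate 1 also raised it at 72 against 6 h, again for both. The strongest CTCF region of the HLA-E window, chr6:30483600-30484294, held 80 and 73.6 CPM (0 h), 51.1 and 79.7 (6 h) and 40.6 and 43.3 (72 h). Its 72 h libraries lay below both others, its log2 fold change being -0.87 (SE 0.28, edgeR adjusted p = 0.0605), and it was called without 6 h replicate 1 (adjusted p = 0.00413) or replicate 2 (0.00537). The region over the TAP2 start stood at 50.4 ± 0.216 CPM at 0 h and 36.6 ± 4.64 at 72 h, that at the PSMB9 start at 25.3 ± 5.67 and 27.4 ± 1.36, and that 7.96 kb beyond PSMB9 at 82.1 ± 4.35 and 64.5 ± 11.5 (SD, n = 2), with no call. CTCF regions beside the B2M start (32.9 ± 10.4 CPM at 0 h and 26.1 ± 4.27 at 72 h), beside NLRC5 (16.1 ± 0.308 and 12.7 ± 2.05), beside HLA-B (28.3 ± 2.82 and 29.8 ± 4.71) and at HLA-C (3.64 ± 0.464 and 7.25 ± 0.476, SD, n = 2) were not called either. The PSMB8 start region had 4.86 ± 1.77 and 4.21 ± 1.39 CPM (SD, n = 2).

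Rad21, sampled at 0 and 72 h, was called at 2 of 27 regions that passed the filter, 3 of 30 having been too low, where 23.3% of all regions were called. There were 4 with an unadjusted p under 0.05 and 0 by DESeq2. In the HLA-E window, chr6:30508142-30508538 rose from 2.67 and 2.11 CPM to 7.14 and 7.92 (log2 fold change 1.63, SE 0.40, edgeR adjusted p = 0.00541). This region lies within the H3K27ac region chr6:30508069-30509823, added here after its values were seen, which went from 28.5 and 33.5 CPM at 0 h to 64.1 and 68.6 at 72 h (2.14-fold, SE 0.11 on the log2 scale, edgeR adjusted p = 2.62e-09). In the B2M window, chr15:44724287-44724486 fell from 4.4 and 5.7 CPM to 1.49 and 1.7 (log2 fold change -1.65, SE 0.50, edgeR adjusted p = 0.0197), overlapping the region of that window where H3K27ac fell most. That call was lost without any 1 of the 4 libraries (adjusted p 0.0619 to 0.163). Without 0 h replicate 1, more regions were called and all were higher, and most calls over all regions were then higher too. Without any other library, fewer member regions were called. The strongest Rad21 regions stood at 20.7 ± 2.99 CPM at 0 h and 28.2 ± 4.96 at 72 h beside HLA-E, at 17.3 ± 2.42 and 14.3 ± 0.555 over the TAP2 start, and at 20.8 ± 1.95 and 14.6 ± 0.188 beyond PSMB9 (SD, n = 2). Beside B2M the strongest was at 15.6 ± 0.558 and 19.5 ± 2.04, at the B2M start 9.91 ± 2.67 and 9.1 ± 0.455, and beside NLRC5 4.73 ± 0.424 and 5.87 ± 1.38 CPM (SD, n = 2). The TAP1 and PSMB9 start held 8.1 ± 0.782 and 9.41 ± 1.85 CPM, the PSMB8 start 3.66 ± 0.501 and 4.92 ± 1.89, the strongest HLA-B region 8.78 ± 3.16 and 12.3 ± 1.13, the HLA-B region nearest its start 1.37 ± 1.05 and 1.11 ± 1.36, and the strongest HLA-C region 1.1 ± 0.228 and 3.37 ± 0.498 (SD, n = 2). None of these was called, and the Rad21 region nearest the HLA-C start was too low to test. The authors' deposited table labels all 22 CTCF and all 30 Rad21 member regions static. Of the 38 Jun regions it labels 35 static, 1 downEarly (the B2M region with the largest fall), 1 downLate, and 1 upLate, the last being the region over the PSMB8 start, whose level fell here.

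**Figure D4:**
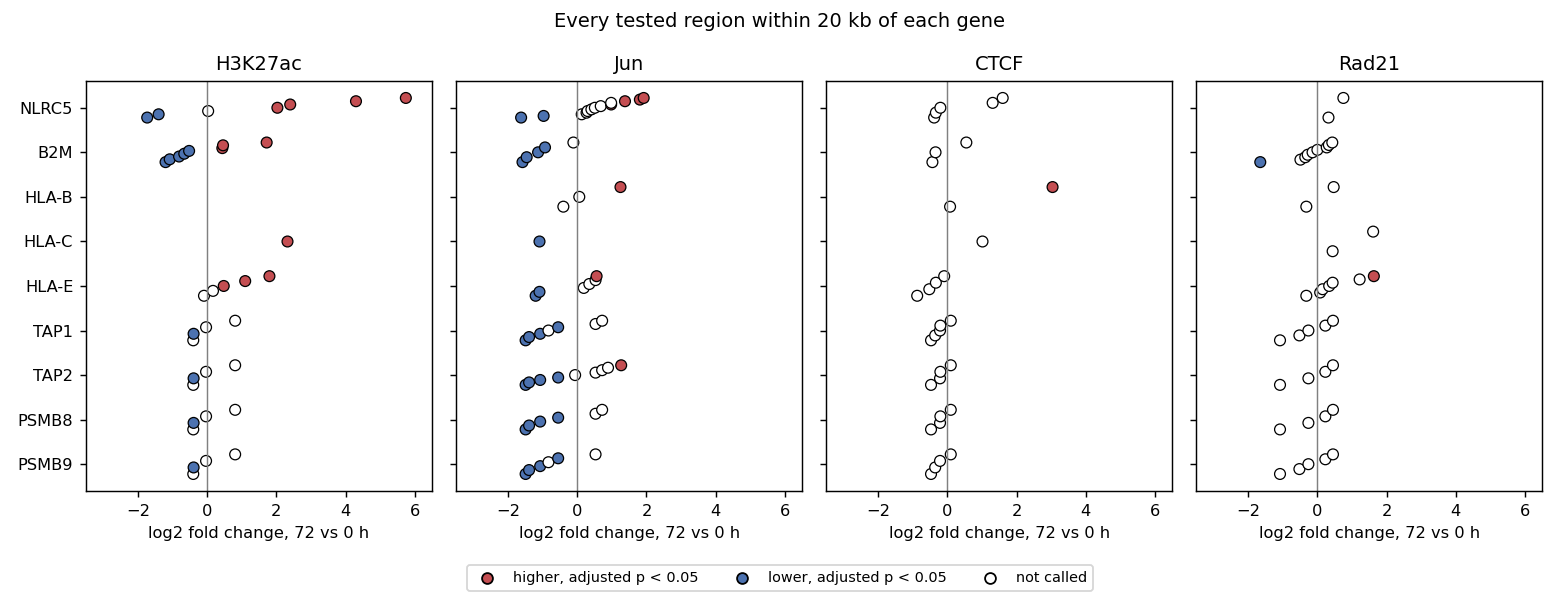
Log2 fold change at 72 against 0 h of every tested region within 20 kb of each gene, by antibody, with filled points where the edgeR adjusted p was under 0.05. Regions shared by TAP1, TAP2, PSMB8 and PSMB9 appear once per gene. Calls are frequent for H3K27ac and Jun and rare for CTCF (1) and Rad21 (2).

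The authors' peak lists, called per library, showed the same regions from another side. Peaks in both libraries covered 10, 10 and 15 of the 25 H3K27ac regions at 0, 6 and 72 h. For Jun they covered 10, 7 and 24 of 38, for CTCF 11, 10 and 12 of 22, and for Rad21 7 and 8 of 30 at 0 and 72 h. Depth, too, was highest at 72 h for H3K27ac and Jun, and its part in the peak numbers was not tested. Of the H3K27ac regions, 17 of 25 overlapped a Jun region, and 21 of 38 Jun regions overlapped an H3K27ac region.

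Summed over the regions of each gene's window, H3K27ac rose at 72 h for NLRC5, HLA-E and HLA-C and fell for the TAP and PSMB cluster. Of 8 genes with regions, 3 rose and 4 fell, where 35.7% of all genes rose and 52.1% fell. The NLRC5 sum went from 6.02 and 6.8 CPM (0 h) to 28.5 and 19.5 (6 h) and 29 and 29.8 (72 h) (log2 fold change 2.20, SE 0.15, edgeR adjusted p = 2.2e-12). HLA-E went from 98.5 and 110 CPM at 0 h to 152 and 160 at 72 h (log2 fold change 0.58, SE 0.08, edgeR adjusted p = 1.72e-07). The B2M sum was not called at 72 against 0 h, when its window held 3 regions that rose and 5 that fell. It stood at 224 and 218 CPM (0 h), 165 and 181 (6 h) and 209 and 220 (72 h). It was called lower at 6 against 0 h (log2 fold change -0.35, SE 0.08, edgeR adjusted p = 0.000368) and higher at 72 against 6 h (0.31, SE 0.08, edgeR adjusted p = 0.00122). The 4 genes of the cluster have the same sum, which went from 23.1 and 25.1 to 17.7 and 20.5 CPM, so their 4 calls are 1 measurement. That call was lost without 0 h replicate 2 or 72 h replicate 1, leaving 3 genes called, and with total counts as the scaling, where B2M was called higher and 4 genes rose and 0 fell. The Jun sums fell for 7 of 9 genes at 72 h and rose for 0, against 45.4% and 27.2% of all genes, but 5 Jun regions lie in the windows of all 4 TAP and PSMB genes, so their 4 falls are not separate measurements. B2M was lowest at -1.15 (SE 0.11, edgeR adjusted p = 1.12e-09), and NLRC5 and HLA-B were not called. With total counts as the scaling, 1 Jun sum fell and 2 rose. The CTCF sum fell for HLA-E only, by 0.55 (SE 0.17, edgeR adjusted p = 0.0237), against 19.7% of genes called in either direction. It was lost without any 1 of the 0 h and 72 h libraries, and 3 genes were called without 6 h replicate 1. Rad21 sums were called by edgeR for 0 of 9 genes, with 1 at an unadjusted p under 0.05, against 27.3%, and for 1 gene without 0 h replicate 1.

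Other genes of the pathway were read at the strongest region within 2000 bases of each span. Of 40 listed genes, 35 had an H3K27ac region, of which 5 rose and 21 fell at 6 h and 8 rose and 20 fell at 72 h. Over all protein-coding genes read this way, 19.1% rose and 50.4% fell at 6 h, and 23.3% rose and 64.3% fell at 72 h. For Jun, all 40 had a region, with 5 rising and 7 falling at 6 h, against 14.8% and 25%, and 9 rising and 20 falling at 72 h, against 18.2% and 52.8%. In peptide loading and trimming, 5 of 7 fell in H3K27ac at 72 h and 0 rose, with the chaperones CALR and CANX past a 2-fold change at -1.27 (SE 0.11) and -1.05 (SE 0.11). Jun at CALR fell by 2.27 (SE 0.24), while at TAPBPL, a tapasin relative, it rose by 2.09 (SE 0.34). Among proteasome partners, 1 rose and 4 fell of 6 in H3K27ac. PSME1, an activator subunit, fell by 1.52 (SE 0.26) in H3K27ac, yet Jun rose there by 2.46 (SE 0.53), as it did at PSMB6 by 3.05 (SE 0.46), and Jun fell at PSMB10 by 1.00 (SE 0.22) and at PSME2 by 1.20 (SE 0.25). The genes named here and in the next paragraph are those past 2-fold, as log2 changes at 72 against 0 h that passed the edgeR test unless 6 h is given. They were read only in the edgeR fit with TMM adjustment, and no other scaling, method or left-out library was tried on them.

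Class I relatives and regulators were mixed. HLA-G had 0 counts of H3K27ac in both 0 h libraries and 1.25 CPM at 72 h, at least 7.64-fold higher against a floor of 3 counts per library, and Jun rose there by 1.05 (SE 0.23). Jun also rose at HLA-F by 1.48 (SE 0.25) and at MICB, a stress ligand for natural killer cells, by 1.88 (SE 0.26), and fell at HFE by 2.07 (SE 0.51). Of 13 regulators, 2 rose and 9 fell in H3K27ac at 72 h, against 23.3% and 64.3% of all protein-coding genes read this way. IRF9, part of the interferon-response complex, rose by 1.35 (SE 0.14), while CIITA, the class II transactivator, fell by 1.13 (SE 0.13), RFXANK by 1.27 (SE 0.10) and RFXAP by 1.80 (SE 0.15). RFXANK and RFXAP encode subunits of the complex that binds the conserved promoter box of class I and class II genes. Jun fell at 10 of the 13 and rose at 0, against 52.8% and 18.2% of all protein-coding genes. Its falls past 2-fold were at STAT2, JAK1, JAK2, RFX5, RFXANK and RFXAP, with values from -1.51 to -1.02. In class II, 4 of 7 genes had an H3K27ac region and all 4 rose at 72 h from levels below 1 CPM: CD74 by 2.64 (SE 0.35), HLA-DMA by 4.05 (SE 0.79), and HLA-DPA1 and HLA-DPB1, which share their region and are 1 measurement, by 2.66 (SE 0.68). Genes without a region are left out of this count, and regions this low at 0 h could enter it through their later levels. The count therefore says nothing about class II genes as a set. Jun fell at HLA-DRA by 3.11 (SE 0.66) and at HLA-DRB1 by 1.45 (SE 0.41), and rose at HLA-DMA by 1.76 (SE 0.42) and at HLA-DMB by 1.46 (SE 0.48). At 6 h, changes of 2-fold or more were called in H3K27ac at CD74 (1.52, SE 0.40) and HLA-G, and in Jun at MICB (1.12, SE 0.30), CALR (-1.63, SE 0.27), TAPBPL (3.14, SE 0.35), PSMB6 (1.93, SE 0.59) and STAT2 (-1.57, SE 0.22).

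The 3 protein-coding genes whose H3K27ac window sums followed the members' mean standardised profile most closely over the 6 libraries were MRTFA (Pearson r = 0.918), RNF227 and KCNAB3 (0.913 each, from shared regions), of 17045 genes ranked. The members' own r with that profile ran from -0.128 at NLRC5 to 0.715 in the TAP and PSMB cluster, whose 4 identical sums enter it 4 times. The profile therefore does not stand for the set. MRTFA held 224 and 240 CPM (0 h), 225 and 237 (6 h) and 224 and 238 (72 h). This closest match differed between replicate numbers rather than between time points, so the likeness describes no shared time course.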

How the data were processed

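Per the submitters' processing notes, Trim Galore 0.4.3, BWA 0.7.17, SAMtools 1.9, deepTools 3.0.1, MACS2 and bedtools 2.26 were used, with hg19 and hg38 named. Their roles, how regions were built and how fragments were counted are not given in the sources used here. The deposited tables hold raw counts per region and library, with the authors' log2 fold changes, of which only the labels are quoted. The authors' peak lists give a −log10 q-value per peak, used only to filter. Regions on chromosome 20 reach 64331078, as in GRCh38, and 1 was added to the deposited starts, which count from 0: many coincide with a peak start in the 0-based peak lists and 0 lie 1 above one.

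Members and gene lists were chosen with earlier results of these data known. Counts were fitted per antibody over all its time points with edgeR 4.0.16 (filterByExpr, TMM, quasi-likelihood, no replicate block), and p-values were adjusted by Benjamini-Hochberg over all regions. The SE is the log2 fold change over the square root of F. The scripts were tested on simulated data. Named regions, per gene and antibody, are the one nearest the annotated start (HLA-E and NLRC5: the strongest), the strongest, and the called ones with the largest and smallest change at 72 against 0 h whose libraries do not overlap. Pathway genes are named past a 2-fold called change, and the 3 genes most alike by Pearson r. Replicates differed beyond counting noise (chi-square per degree of freedom 2.15 to 6.02). Alternatives were total counts (also outside the mitochondrial genome), DESeq2, other filters and windows, and leaving out each library. Some marker genes of the cell type lists are not reported here.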

Additional observations from a re-analysis of the deposited data

How the results depend on the processing

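Of the calls counted per antibody and time, H3K27ac kept within 1.5 times of its count under scaling, DESeq2, block and left-out library. A gene span without its 20 kb flanks holds fewer regions: it gave 5, 9 and 2 H3K27ac calls at 6 against 0, 72 against 0 and 72 against 6 h, 5 and 11 Jun calls at 6 and 72 against 0 h, and 0 for CTCF and Rad21 at 72 h and for the CTCF sums. A mean count of at least 50 left fewer regions to test. At 72 against 0 h it gave calls at 10 of 15 H3K27ac, 10 of 13 Jun, 0 of 9 CTCF and 0 of 10 Rad21 regions. At 6 h it gave 7 of 13 for Jun. DESeq2 gave 13 Jun calls at 72 against 0 h, 1 at 72 against 6 h, and 0 for CTCF and Rad21. Total counts gave 2 and 1 CTCF calls at 72 against 0 and 6 h, and 4 H3K27ac, 3 Jun, 0 CTCF and 2 Rad21 sums, and turned the Jun region at the TAP2 start to 0.01. Total counts outside the mitochondrial genome, chosen after seeing the data, gave 8 higher and 11 lower Jun calls at 72 against 0 h. Over all regions, 62.6% of Jun calls were higher in that setting. With only the 2 time points compared, CTCF had 3 calls at 72 against 0 h. For the 130 fold changes of named regions there were 1600 alternative values. Of these, 1493 kept their side of the threshold, 81 lost their call, 25 gained one and 1 called value turned sign. Sign changes of values called in neither setting were counted as kept. The cause of these moves was not tested.

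With the replicate number as a block, CTCF had 2 calls at 72 against 0 h and Rad21 1 gene sum, and H3K27ac and Jun had 18 and 17 calls at 72 h. Replicate differences correlated between time points at -0.00841 to 0.124, so the numbers are not taken as pairs. Leaving out 1 library at a time gave, at 6 against 0, 72 against 0 and 72 against 6 h, 11 to 12, 15 to 19 and 7 to 9 calls for H3K27ac, 7 to 12, 11 to 20 and 0 to 5 for Jun, and 0 to 0, 0 to 3 and 0 to 1 for CTCF, with 1 to 4 for Rad21. Gene sums called were 3 to 7 for H3K27ac, 5 to 7 for Jun, 0 to 3 for CTCF and 0 to 1 for Rad21. A group left with 1 library is assumed to vary like the others. Peaks in both libraries with a −log10 q of at least 10 covered 6 H3K27ac regions at 0 h, 3 and 12 Jun at 6 and 72 h, 7 and 7 CTCF at 0 and 72 h, and 2 Rad21 at 72 h. Peaks over at least 0.5 of the region covered 6 and 4 H3K27ac at 0 and 6 h, 6 and 2 Jun, 7 and 5 CTCF, and 4 Rad21 at 0 h. Depth limits weak regions, such as Jun over the PSMB8 start with 3 and 4 counts at 6 h.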
